A study of Mus musculus with 16 samples.

Results

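The comparison set messenger RNA bound by a single ribosome, the monosome, against total cytoplasmic RNA in hepatocytes of FVB mice on normal chow. Its members were chosen by group label: the 2 chow monosome libraries and the 2 chow cytoplasmic libraries, 4 of the 16 libraries of the study. The study fed FVB mice either normal chow or DDC, a diet used to injure the liver and bile ducts, for 4 weeks, and isolated their hepatocytes with cycloheximide present. Cytoplasmic RNA was kept, and extracts were spread over sucrose gradients into monosomes, light polysomes (2 to 4 ribosomes) and heavy polysomes (over 5). Polyadenylated RNA was sequenced with a TruSeq stranded kit, 2 libraries for each diet and RNA pool. All groups used here thus share strain, cell type and cycloheximide. The labels name the chow monosome libraries for the preparations CH1_CH2 and CH3_CH4 and the chow cytoplasmic libraries for CH1 and CH3. Each monosome library therefore appears to join material of more than 1 preparation, and the labels do not say that a preparation is a single animal. No age is given. Among sex-linked transcripts, Xist was present only in replicate 1 and Ddx3y only in replicate 2 of both pools. The chow replicates may therefore differ in sex.

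A translating message usually carries many ribosomes, and sucrose gradients sort messages by how many they carry. Cycloheximide blocks elongation and holds ribosomes where they are. A message can be found on a single ribosome because its coding sequence is short, because initiation on it is infrequent, because a short frame upstream of the main one is being read, or because the ribosome stopped early. Messages for ribosomal proteins and several translation factors start with a run of pyrimidines, the 5′ terminal oligopyrimidine or TOP motif, through which growth signals and the mTOR kinase switch their translation on and off. Levels are given as FPKM, fragments scaled by transcript length and by library, summed over the transcripts of a gene. A difference is monosomes minus cytoplasm of mean log2(FPKM + 1), so it understates the change of low genes.

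Pyrimidine runs found near the annotated starts of TOP genes named below are printed here. They are matches of letters, not mapped transcription starts, so no run is shown to be the TOP motif of its message. Each line gives 30 bases from RefSeq on GRCm38.p6 with the run in capitals, beginning 8 bases before it. The runs of Rpl28, Fau and Eef1a1 begin within 5 bases before the gene start annotated in RefSeq. Those of Rps15 and Rpl37a lie 26 and 25 bases after it, so the windows of Rps15 and Rpl37a do not hold that start.
Rpl28, chr7:4792955-4792984, plus strand: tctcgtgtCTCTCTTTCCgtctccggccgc
Rps15, chr10:80292448-80292477, plus strand: agcccgtaCTTCCTTTTCCgagtaaccgcc
Rpl37a, chr1:72711276-72711305, plus strand: cattgcgtCCCTTCCTCTTCggacttgggc
Fau, chr19:6057936-6057965, plus strand: cgcccccaCTTCTTCCTCTTTCTTgactcc
Eef1a1, chr9:78481708-78481737, minus strand: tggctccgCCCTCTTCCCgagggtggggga
Rpl41, the message with the largest rise, has a very short coding sequence, shown whole from GENCODE M21 with its start and stop codons in capitals. It runs over 78 bases, or 26 codons with the stop.
Rpl41 coding sequence: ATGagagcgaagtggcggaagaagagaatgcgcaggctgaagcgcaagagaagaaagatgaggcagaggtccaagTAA
Selenow, another large rise, reads an in-frame TGA as selenocysteine. That codon, in capitals, is codon 13 of 89.
Selenow coding sequence around the TGA: tattgtggagctTGAggctataagcccaag

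The libraries differed in scale and in evenness, and these facts touch every value below. Summed FPKM was 445688 and 498983 in the cytoplasmic libraries and 764465 and 812204 in the monosome libraries, and 8987 to 9345 genes reached 1 FPKM. Replicates correlated at 0.958 in cytoplasm and 0.945 on monosomes across genes, and monosome replicate 2 held 246 tested genes at 0 that replicate 1 did not, against 20 the other way. Transcripts annotated as protein-coding made up 93.4% of FPKM in both cytoplasmic libraries and 88.6% and 89.3% on monosomes. Retained-intron transcripts made up 1.39% in both cytoplasmic libraries and 2.45% and 2.58% on monosomes, and lincRNA 0.345% and 0.303% against 0.801% and 0.823%. These shares have no test, since an exact permutation of 2 against 2 cannot give a p under 0.333. Hepatocyte markers were abundant, with 15 of 17 tested and summed levels of 24800 and 31500 FPKM in cytoplasm and 25500 and 26900 on monosomes. Of the 17 hepatocyte markers, Alb and Serpina1c are listed at 0 in all 4 libraries. Zeros of this kind were not limited to these markers. Serpina1c is among 21 genes at 0 in these 4 libraries and at 100 FPKM or more in another library. Alb is listed at 0 in every library of the study, so it is not among the 21. The summed levels above count such genes as 0.

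Of 9672 genes tested, 1637 (16.9%) were higher on monosomes and 1277 (13.2%) were lower by limma (Benjamini-Hochberg adjusted p under 0.05). The groups did not overlap for 6685 genes (69.1%), which is the background for every count of non-overlapping genes here, and no called gene overlapped. The difference reached 2-fold for 1324 of the higher and 702 of the lower genes. The rises included ribosomal proteins and ferritin, and the falls included plasma proteins, enzymes of the urea cycle and splicing factors. The balance of directions depended on the scale. After scaling all libraries to equal totals the median difference shifted by -0.61, and the split changed from 56.2% higher among calls to 19.3%, with 911 higher and 3809 lower. Lists are therefore read against all genes tested, whose median was -0.04. Single libraries carried much of the number of calls. Leaving out monosome replicate 2 gave 923 higher and 525 lower, leaving out cytoplasmic replicate 1 gave 909 and 454, and leaving out cytoplasmic replicate 2 gave 1096 and 560.

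**Figure D1:**
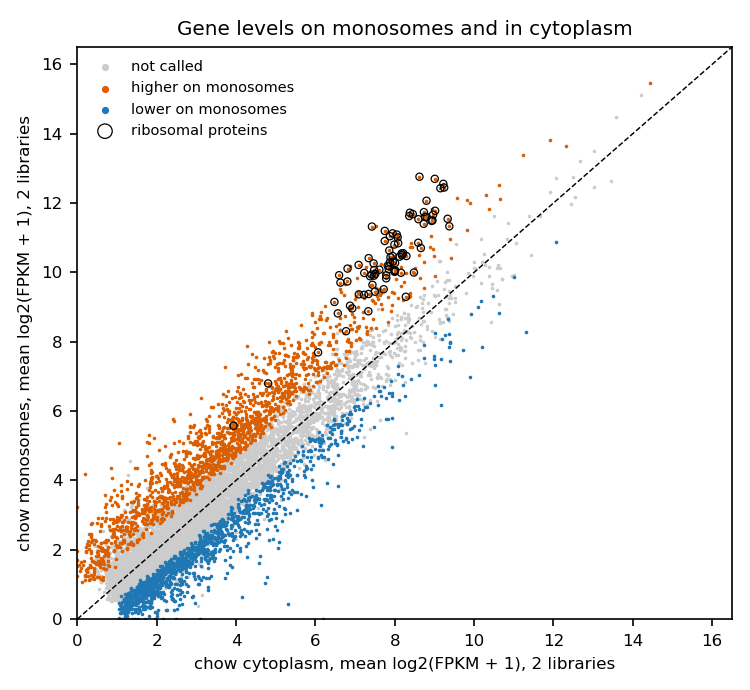
Mean log2(FPKM + 1) of each of 9672 tested genes in chow cytoplasm (horizontal) and on chow monosomes (vertical), 2 libraries each, with genes called higher in orange, lower in blue and not called in grey. The circled genes are the 82 ribosomal protein genes, all of them above the dashed line of equal levels.

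Ribosomal protein messages were the clearest group on monosomes. All 82 tested were higher (33 of 33 of the small subunit and 49 of 49 of the large subunit), against 16.9% of all genes, and none of their groups overlapped. Their median difference was 2.52, with 2.55 for the small and 2.37 for the large subunit, and the smallest was 1.02 for Rpl36al. Rpl36al was not called with equal totals (0.32, adjusted p = 0.239) or without monosome replicate 2 (0.85, adjusted p = 0.117) or cytoplasmic replicate 1 (0.85, adjusted p = 0.122). The median level of the 82 genes was 227 and 251 FPKM in the cytoplasmic libraries and 1220 and 1320 FPKM in the monosome libraries. It was 441 and 449 FPKM on light and 619 and 612 FPKM on heavy polysomes, so that monosomes held the highest level of the 4 chow pools. Gene by gene, 74 of the 82 were highest on monosomes, 7 on heavy polysomes, 1 on light polysomes and 0 in cytoplasm. With equal totals 80 of the 82 were still higher, and their median was 1.83. Leaving out any single library left 80 to 82 higher. Many ribosomal protein genes have near-identical processed copies elsewhere in the genome, so the division of fragments between a gene and its copies is uncertain.

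Rpl41 encodes the smallest protein of the large subunit and lies at chr10:128548114-128549305 on the minus strand. It stood at 386 and 401 FPKM in cytoplasm and at 6380 and 7530 FPKM on monosomes. Both monosome libraries lay far above both cytoplasmic ones, a difference of 4.14 (SE 0.39, limma adjusted p = 3.42e-05), or 17.6-fold. On polysomes Rpl41 was at 1840 and 2220 FPKM (light) and 730 and 678 FPKM (heavy), so its level fell as the number of ribosomes rose. Rpl28, whose start is printed above, was at 165 and 177 FPKM in cytoplasm and 2460 and 2660 FPKM on monosomes. This was a difference of 3.90 (SE 0.25, limma adjusted p = 9.1e-06), or 14.9-fold, with closely placed replicates.

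Rps15, of the small subunit, showed the same separation with a different polysome pattern. Its level was 479 and 552 FPKM in cytoplasm, 5930 and 7440 FPKM on monosomes, and 4080 and 3980 FPKM on heavy polysomes. Its difference was 3.69 (SE 0.27, limma adjusted p = 1.33e-05). Fau, which encodes the small-subunit protein eS30 fused to a ubiquitin-like part, rose from 325 and 340 to 3220 and 3530 FPKM and stayed high on heavy polysomes at 2610 and 2590 FPKM. Rplp1 and Rplp2 encode acidic proteins of the stalk that recruits elongation factors. Rplp1 went from 568 and 628 to 5680 and 6360 FPKM, and Rplp2 from 323 and 379 to 3280 and 3290 FPKM. The stalk messages thus moved by 3.33 and 3.23. Rpl37a (3.45) and Rps16 (3.16), other structural proteins of the ribosome, were of similar size. At the small end, Rpl4 rose by 1.51 from 337 and 378 to 1000 and 1040 FPKM, and Rpl5, which carries 5S RNA into the ribosome, rose by 1.53 from 105 and 112 to 313 and 317 FPKM. With equal totals Rpl5 missed the threshold (0.84, adjusted p = 0.0547), as did Rpl4 with quantile normalization (0.53, adjusted p = 0.183).

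**Figure D2:**
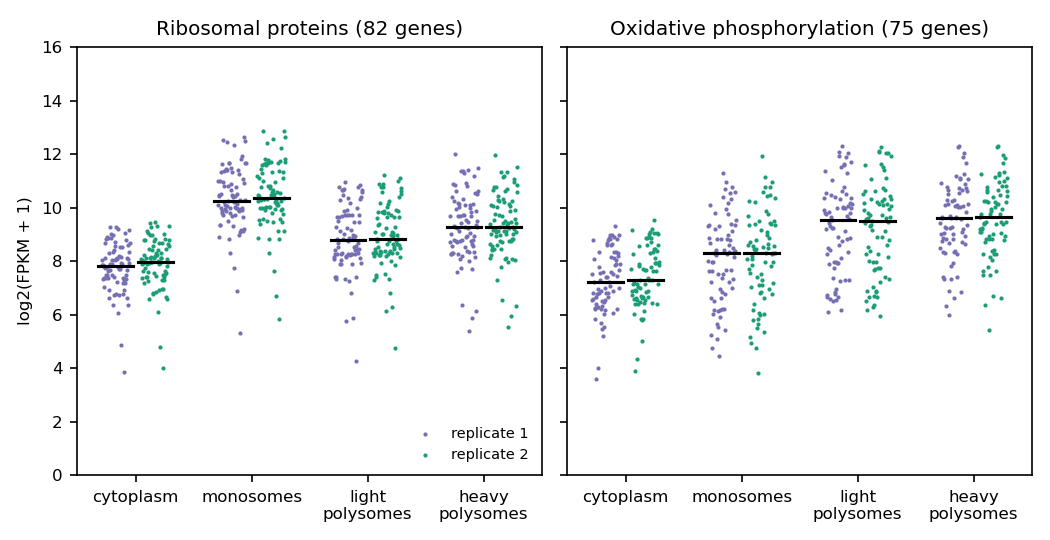
log2(FPKM + 1) of 82 ribosomal protein genes (left) and 75 nuclear oxidative phosphorylation genes (right) in each of the 8 chow libraries, replicate 1 in purple and replicate 2 in green, with the median as a bar. Ribosomal protein medians peak on monosomes at 1220 and 1320 FPKM, while oxidative phosphorylation medians are 775 and 796 FPKM on heavy polysomes. Summed FPKM is also largest on heavy polysomes, and these levels are not scaled to equal totals.

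Other TOP messages outside the ribosome moved the same way less uniformly. Of 17 listed, 11 were higher (64.7%) and 0 lower by limma (11 and 0 at an unadjusted p under 0.05). The median of the 17 was 1.52, and the 6 that did not pass were Pabpc1, Npm1, Hnrnpa1, Eif3e, Vim and Btf3. Tpt1, a small growth-related protein and a classical TOP message, was at 899 and 895 FPKM in cytoplasm and 4560 and 4200 FPKM on monosomes. It was at 883 and 946 FPKM on light and 520 and 587 FPKM on heavy polysomes, with monosomes well above and heavy polysomes below the other pools, and the difference was 2.29 (SE 0.27, limma adjusted p = 0.000137). Rack1, a scaffold on the small subunit, rose by 2.86 from 153 and 157 to 1080 and 1180 FPKM, and Eif3f, an initiation factor subunit, by 2.73 from 25.3 and 30.2 to 176 and 202 FPKM. Among elongation factors, Eef1d rose by 2.04, Eef1g by 2.05, Eef1b2 by 1.73 and Eef2 by 1.63, Eef2 not with quantile normalization (0.68, adjusted p = 0.0661). Eef1a1, which delivers aminoacyl-tRNA to the ribosome, was at 1540 and 1710 FPKM in cytoplasm and 4640 and 4230 FPKM on monosomes. Its difference of 1.45 (limma adjusted p = 0.00997) was not called without cytoplasmic replicate 1 (1.37, adjusted p = 0.0712) or with equal totals (0.76, adjusted p = 0.0909). Pabpc1, the poly(A)-binding protein, was at 68.2 and 68.1 FPKM in cytoplasm and 70.0 and 84.0 FPKM on monosomes, a difference of 0.17 that did not pass.

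Outside ribosomal proteins the motif was about as frequent among genes that rose as among the others. Searched from 30 bases before to 50 after the annotated start on the transcribed strand, a C followed by at least 7 bases that are each C or T was found at 49 of 61 ribosomal protein genes with a RefSeq entry (80.3%) and at 7025 of all 27025 genes (26.0%). It was found at 4 of 11 of the other TOP genes (36.4%). Among genes higher on monosomes without the ribosomal proteins the share was 24.7%, among lower genes 27.3% and among genes not called 25.2%. A match is a description of these letters and not a mapped transcription start.

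Initiation factors showed no common direction, with 10 of 38 higher (26.3%) and 6 lower (15.8%), against 16.9% and 13.2% of all genes. Their median of -0.04 was the same as that of all genes. Eif4ebp1, the repressor of cap-dependent initiation, rose by 2.04 from 13.6 and 18.2 to 65.0 and 70.4 FPKM. Eif3k, a small subunit of eIF3, rose by 1.70, whereas Eif3a, its largest subunit, fell by 2.78 from 25.6 and 21 to 3.03 and 2.09 FPKM. Cytosolic aminoacyl-tRNA synthetases, which charge tRNA, leaned lower, with 2 of 20 higher (10%), 6 lower (30%) and a median of -0.45. Eprs fell by 1.21 and Dars by 1.74.

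Coding length followed the difference across genes. Among 8323 protein-coding genes with a coding length for their most abundant transcript, the median difference was 0.70 up to 300 nucleotides, 0.42 above that and up to 600, 0.02 up to 1200, -0.26 up to 2400, -0.45 up to 4800 and -0.56 above 4800. Calls followed the same order: 204 of 476 genes of the shortest class were higher and 18 lower, and 1 of 152 of the longest class was higher and 63 lower. Without ribosomal proteins the medians of the shortest classes were 0.67 and 0.37. Spearman's rho between difference and coding length was -0.395 across genes and -0.384 without ribosomal proteins, given as a description because genes share their libraries. With equal totals the order of the classes stayed, but the class above 300 and up to 600 nucleotides turned to -0.19 and the next, up to 1200, to -0.56.

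Length also enters FPKM itself, through the correction for short transcripts. The FPKM worth of 1 fragment was therefore read from the lowest values of genes with a single transcript. Transcripts of 300 to 399 nucleotides had a worth, per unit length, of 1.98 and 1.96 times that of transcripts of 800 to 1199 nucleotides in the cytoplasmic libraries. In the monosome libraries it was 1.97 and 2.15 times, largest in monosome replicate 2. Within transcripts of over 1000 and up to 2000 nucleotides, the medians for the 4 shortest coding classes were 0.43, 0.39, 0.21 and -0.12. These medians kept the order by coding length within 1 range of transcript length. The part of the correction in that order was not tested.

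**Figure D3:**
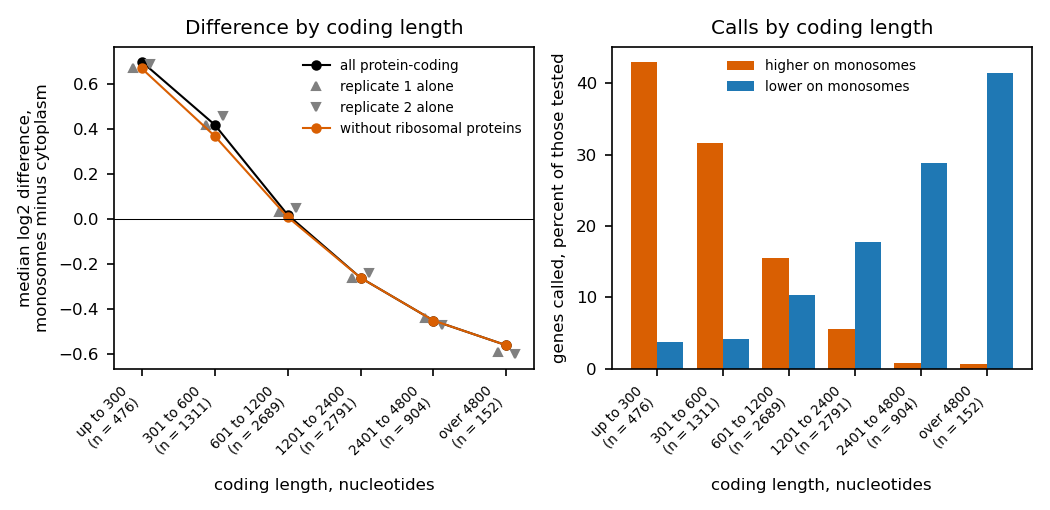
Left, median log2 difference between monosomes and cytoplasm by coding length in nucleotides for all protein-coding genes (black), without ribosomal proteins (orange) and in each replicate pair alone (grey). Right, percent of tested genes called higher (orange) or lower (blue), from 42.9% higher in the shortest class to 41.4% lower in the longest.

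Short mitochondrial proteins made in the cytoplasm were among the genes that rose. Nuclear genes of oxidative phosphorylation had 38 of 75 higher (50.7%, against 16.9% of all genes) and 5 lower (6.67%), with a median of 0.86. Mitochondrial ribosomal proteins had 40 of 77 higher (51.9%) and 8 lower (10.4%), with a median of 0.72. With equal totals these medians were 0.17 and 0.04, above the median of all genes at that scale (-0.60). Ndufa2, a small accessory subunit of complex I, was at 91.9 and 104 FPKM in cytoplasm and 641 and 825 FPKM on monosomes, a difference of 2.88 (SE 0.28, limma adjusted p = 4.23e-05). Cox7a2l, which helps assemble respiratory supercomplexes, rose by 2.36 from 66.3 and 85.8 to 389 and 395 FPKM and fell off to 114 and 96.7 FPKM on heavy polysomes. Atp5j2, a subunit of the ATP synthase, also rose by 2.36, and Mrpl52 by 2.27. In contrast to ribosomal proteins, the median of the 75 genes was higher on light polysomes (733 and 721 FPKM) and heavy polysomes (775 and 796 FPKM) than on monosomes (313 and 311 FPKM). Short coding length was no rule within the list: Ndufc2, a complex I subunit of 363 coding nucleotides, fell by 1.41 from 72.0 and 86.6 to 33.1 and 25.7 FPKM.

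Transcripts of the mitochondrial genome, which mitochondrial and not cytosolic ribosomes read, were measured for few genes. Of 13, 5 were tested, and mt-Co1 is listed at 0 in all 4 libraries. mt-Nd1, a complex I subunit, was at 12900 and 11400 FPKM in cytoplasm, 23100 and 22800 FPKM on monosomes, 2130 and 2880 FPKM on light and 754 and 761 FPKM on heavy polysomes. Its groups did not overlap, and the difference of 0.92 did not pass (limma adjusted p = 0.0725). With the replicate number as a block in the 8 chow libraries it passed (limma adjusted p = 0.00382).

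Messages known for translated upstream frames tended to be higher on monosomes. Of 18 tested, 7 were higher and 0 lower by limma (7 and 1 unadjusted). The share higher was 38.9%, against 16.9% of all genes, and the median of 0.73 was reduced to 0.05 by equal totals. Ddit3, the stress-induced factor CHOP, was at 10.3 and 8.76 FPKM in cytoplasm and 37.0 and 29.8 FPKM on monosomes, a difference of 1.70 (SE 0.41, limma adjusted p = 0.00913). Its annotated leader holds 2 upstream ATGs that open frames of 35 and 32 codons. Without cytoplasmic replicate 2 its difference was 1.60 and missed the threshold (adjusted p = 0.0582). Atf4, the effector of the integrated stress response, was at 57.6 and 47.4 FPKM in cytoplasm, 124 and 115 FPKM on monosomes, 91.4 and 90.0 FPKM on light and 29 and 20.2 FPKM on heavy polysomes. Monosomes held its highest and heavy polysomes its lowest level. The difference of 1.17 (limma adjusted p = 0.00588) missed the threshold without cytoplasmic replicate 2 (1.04, adjusted p = 0.0536) and with equal totals (0.49, adjusted p = 0.131). Its leader holds 3 upstream ATGs, the last of which opens a frame of 60 codons that runs past the main start.

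The same list held genes of polyamine metabolism. Odc1, the first enzyme of polyamine synthesis, was at 23.8 and 20 FPKM in cytoplasm and 66.1 and 55.7 FPKM on monosomes, a difference of 1.43 (limma adjusted p = 0.00217) that equal totals left at 0.77 (adjusted p = 0.0654). Sat1, which breaks polyamines down, rose by 1.29, also lost with equal totals (0.61, adjusted p = 0.105). Amd1, the other regulated enzyme of polyamine synthesis, was at 6.21 and 6.91 against 7.73 and 11.4 FPKM and did not pass (0.46), nor did Azin1, which stabilises the Odc1 product, at 20.1 and 22.7 against 19.5 and 18.8 FPKM (-0.15). Eif1, which guards start codon choice, rose by 1.79 from 192 and 222 to 681 and 753 FPKM. Across all genes upstream ATGs separated the calls little: 47.6% of higher, 44.2% of lower and 45.2% of genes not called had at least 1, and 35.4% of ribosomal protein genes. In each of the 6 coding length classes the median was higher with an upstream ATG than without, given as a description. Up to 300 coding nucleotides it was 0.91 for 160 genes with and 0.58 for 222 without. Within the class above 300 and up to 600 the median difference was 0.51 for the 471 genes with an upstream ATG and 0.30 for the 677 without. It was 0.08 and -0.03 up to 1200 nucleotides, -0.21 and -0.30 up to 2400, -0.40 and -0.48 up to 4800, and -0.56 and -0.57 above.

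Noncoding transcripts that host small nucleolar RNAs in their introns were also prominent on monosomes. Of 12 tested, 6 were higher (50%, against 16.9% of all genes) and 0 lower by limma (7 and 0 unadjusted). The median of these hosts was 1.34, or 0.79 with equal totals. Several of them carry a TOP-like start, and many are destroyed by nonsense-mediated decay once a ribosome reads them. Gas5 was at 85.3 and 95 FPKM in cytoplasm, 339 and 359 FPKM on monosomes, 53.2 and 63.0 FPKM on light and 9.41 and 6.17 FPKM on heavy polysomes. The monosome libraries stood well above all other chow libraries, and the difference from cytoplasm was 1.94 (SE 0.28, limma adjusted p = 0.000372). Snhg8 was also highest on monosomes and lowest on heavy polysomes: it was at 33.7 and 39.0 FPKM in cytoplasm, 244 and 205 FPKM on monosomes, 53.7 and 48.8 FPKM on light and 6.28 and 12.9 FPKM on heavy polysomes, a difference of 2.59. In FPKM the light polysome level of Snhg8 lay above cytoplasm, unlike that of Gas5, but summed FPKM was larger on light polysomes too. This contrast was not examined with equal totals. Other long noncoding RNAs were mixed, with 2 of 9 higher (22.2%) and 1 lower (11.1%), near the 16.9% and 13.2% of all genes. Their median of 0.17 turned to -0.21 with equal totals. Neat1, the scaffold of nuclear paraspeckles, was at 9.96 and 9.15 against 30.4 and 19.3 FPKM and missed the threshold (1.26, limma adjusted p = 0.0534). It passed with the replicate block in the 8 chow libraries (adjusted p = 0.00584). Malat1, another nuclear RNA, was at 2.18 and 5.16 against 3.31 and 0.313 FPKM, and its groups overlapped.

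Selenoproteins, whose messages recode a UGA stop codon, split by gene. Of 19 tested, 6 were higher (31.6%, against 16.9% of all genes) and 3 lower (15.8%, near 13.2%). The median of 0.43 turned to -0.26 with equal totals. Selenow was at 117 and 114 FPKM in cytoplasm, 1040 and 1300 FPKM on monosomes and 141 and 134 FPKM on heavy polysomes. Its difference of 3.32 (SE 0.33, limma adjusted p = 4.23e-05), or 9.99-fold, left the heavy polysomes close to the cytoplasmic level. Gpx1, the abundant glutathione peroxidase of liver, rose by 2.13 from 2430 and 2420 to 10000 and 11300 FPKM but was higher still on light polysomes, at 21000 and 20400 FPKM. Gpx4, which repairs lipid peroxides, rose by 1.91. Selenop, the secreted selenium carrier with many such codons, was at 2740 and 2570 against 3450 and 2870 FPKM and did not pass (0.25), and quantile normalization turned it to -0.93.

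Ferritin, whose messages iron regulatory proteins repress through a leader hairpin, rose in both chains. Fth1, the heavy chain, was at 1510 and 1650 FPKM in cytoplasm and 4980 and 6890 FPKM on monosomes, a difference of 1.89 (limma adjusted p = 0.0027), or 0.95 with quantile normalization (adjusted p = 0.0581). Ftl1, the light chain, went from 3700 and 3970 to 12100 and 17500 FPKM, a difference of 1.93. Heme and iron genes as a list were mixed, with 5 of 25 higher (20%) and 3 lower (12%), near the 16.9% and 13.2% of all genes. Their median was 0.07, which equal totals turned to -0.51.

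Small and large secreted proteins of the hepatocyte were listed separately. Small secreted and lipoprotein messages had 5 of 23 higher (21.7%, near the 16.9% of all genes) and 0 lower by limma (6 and 0 unadjusted), with a median of 0.42 that equal totals turned to -0.27, and the 5 were Apoc1, Apoc2, Apoc3, Apoc4 and Mt1, the last a metal-binding protein of the cell. Apoc1, Apoc2 and Apoc3 each lost the call when any of the 4 libraries was left out (adjusted p from 0.0513 to 0.23) and with equal totals, and Mt1 without monosome replicate 1 (1.76, adjusted p = 0.0576). With quantile normalization Apoc1 was at 0.00. Apoc4, a small apolipoprotein, was at 1170 and 1380 FPKM in cytoplasm, 4650 and 4960 FPKM on monosomes and 14000 and 13000 FPKM on heavy polysomes. Its difference of 1.92 missed the threshold without monosome replicate 2 (1.87, adjusted p = 0.0504) or cytoplasmic replicate 1 (1.80, adjusted p = 0.0586), and with quantile normalization (0.94, adjusted p = 0.105). Hamp, the iron hormone hepcidin, was at 8570 and 8060 FPKM in cytoplasm and 13500 and 9750 FPKM on monosomes, and did not pass (0.46) although heavy polysomes held 75800 and 61600 FPKM. Large plasma proteins had 2 of 25 higher (8%) and 9 lower (36%), against 16.9% and 13.2% of all genes, with a median of -0.88.

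Serpinc1, the clotting inhibitor antithrombin, illustrated the fall. It was at 1770 and 1400 FPKM in cytoplasm, 531 and 394 FPKM on monosomes and 5720 and 4090 FPKM on heavy polysomes. Monosomes held its lowest and heavy polysomes its highest level, and the difference of -1.78 passed (SE 0.34, limma adjusted p = 0.00236). F5, a clotting factor with 6552 coding nucleotides, was at 41.6 and 44.9 FPKM in cytoplasm and 20.7 and 19.7 FPKM on monosomes (-1.06). It was lower again on heavy polysomes, at 8.63 and 9.46 FPKM, so a low monosome level did not always go with a high polysome level. Fgb (-1.96), a fibrinogen chain, fell too, but not without monosome replicate 2 (-1.64, adjusted p = 0.0648) or cytoplasmic replicate 1 (-1.67, adjusted p = 0.0632). C4b (2.03) and Serpina1e (1.33) rose, and both have close gene copies. Serpina1e missed the threshold with equal totals (0.64, adjusted p = 0.0543), without monosome replicate 2 (adjusted p = 0.0588) and without cytoplasmic replicate 1 (1.10, adjusted p = 0.0671). Apob, the gene of a very long apolipoprotein, was at 686 and 796 against 744 and 813 FPKM, a difference of 0.07 that turned to -0.62 with equal totals and -0.93 with quantile normalization. Its most abundant transcript here had only 1236 coding nucleotides, so this sum does not describe the full-length message alone.

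Major urinary proteins are nearly identical in sequence, so their division among genes is uncertain. Of 15 tested, 0 were higher and 2 lower by limma (0 and 4 unadjusted), Mup2 and Mup10, a share of 13.3% near the 13.2% of all genes. Mup2 was not called without monosome replicate 1 (-1.46, adjusted p = 0.184) or cytoplasmic replicate 2 (-1.48, adjusted p = 0.219). Mup10 was at 1970 and 3290 FPKM in cytoplasm and 262 and 364 FPKM on monosomes (-3.04). The median of -0.94 turned to 0.21 without monosome replicate 1 and to 0.20 without cytoplasmic replicate 2. Chow replicates differed widely for some members: in cytoplasm Mup21 was at 17.9 and 2040 FPKM and Mup20 at 5.76 and 391 FPKM. The same replicates differed in the sex-linked transcripts Xist and Ddx3y, and the part of sex was not tested. Cytochrome P450 enzymes, which oxidise drugs and steroids, had 0 of 57 higher and 5 lower by limma (1 and 7 unadjusted), with a median of -0.27. Their share lower was 8.77%, below the 13.2% of all genes. Cyp2a12 was at 467 and 557 FPKM in cytoplasm, 194 and 165 FPKM on monosomes and 738 and 695 FPKM on heavy polysomes, a fall of 1.51 on the log2 scale. Cyp7a1, the rate-limiting enzyme of bile acid synthesis, was at 22.5 and 25.8 against 20.7 and 31.6 FPKM with overlapping groups.

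Enzymes of the urea cycle and amino acid breakdown were mostly below their cytoplasmic level on monosomes. Of 57 tested, 1 was higher and 17 were lower (13.2% of all genes were lower), with a median of -0.50. Otc, a mitochondrial enzyme of the urea cycle, was at 216 and 225 FPKM in cytoplasm, 51.6 and 56.0 FPKM on monosomes and 164 and 166 FPKM on heavy polysomes. Its difference was -2.02 (SE 0.25, limma adjusted p = 0.000177), with tight replicates in every pool. Arg1, the last enzyme of the cycle, fell by 1.01 (limma adjusted p = 0.0439), a call lost when any of the 4 libraries was left out (adjusted p from 0.113 to 0.186). Cps1, its first enzyme, with 4503 coding nucleotides, was at 163 and 151 against 66.1 and 76.8 FPKM and missed the threshold (-1.12, limma adjusted p = 0.0511). It passed with the replicate block in the 8 chow libraries (adjusted p = 0.000915).

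Fatty acid oxidation had 0 of 37 genes higher and 9 lower by limma (0 and 12 unadjusted), with a median of -0.42. Its share lower was 24.3%, against 13.2% of all genes. Etfa and Etfb encode the subunits of the carrier that takes electrons from acyl-CoA dehydrogenases, and Etfdh passes them to the respiratory chain. Etfa was at 246 and 237 FPKM in cytoplasm, 37.2 and 24.3 FPKM on monosomes and 227 and 220 FPKM on heavy polysomes (-2.96, SE 0.37, limma adjusted p = 0.000174). Etfdh fell by 1.70, whereas Etfb was at 435 and 403 against 397 and 369 FPKM and did not pass (-0.13, adjusted p = 0.685). Proteasome subunits had 3 of 38 higher (7.89%) and 10 lower (26.3%), with Psmd12 (-1.88), Psmc6 (-1.81) and Psmd1 (-1.70) among the falls. Glutathione and redox genes had 4 of 35 higher (11.4%) and 7 lower (20%). Gclm, the small subunit of the rate-limiting enzyme of glutathione synthesis, fell from 125 and 106 to 49.1 and 54.4 FPKM. Cholesterol and fatty acid synthesis had 2 of 42 higher (4.76%) and 5 lower (11.9%, below the 13.2% of all genes). Its largest fall was Gpam, which starts triglyceride synthesis, at 7.85 and 5.44 against 0.411 and 0.762 FPKM (-2.26).

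**Figure D4:**
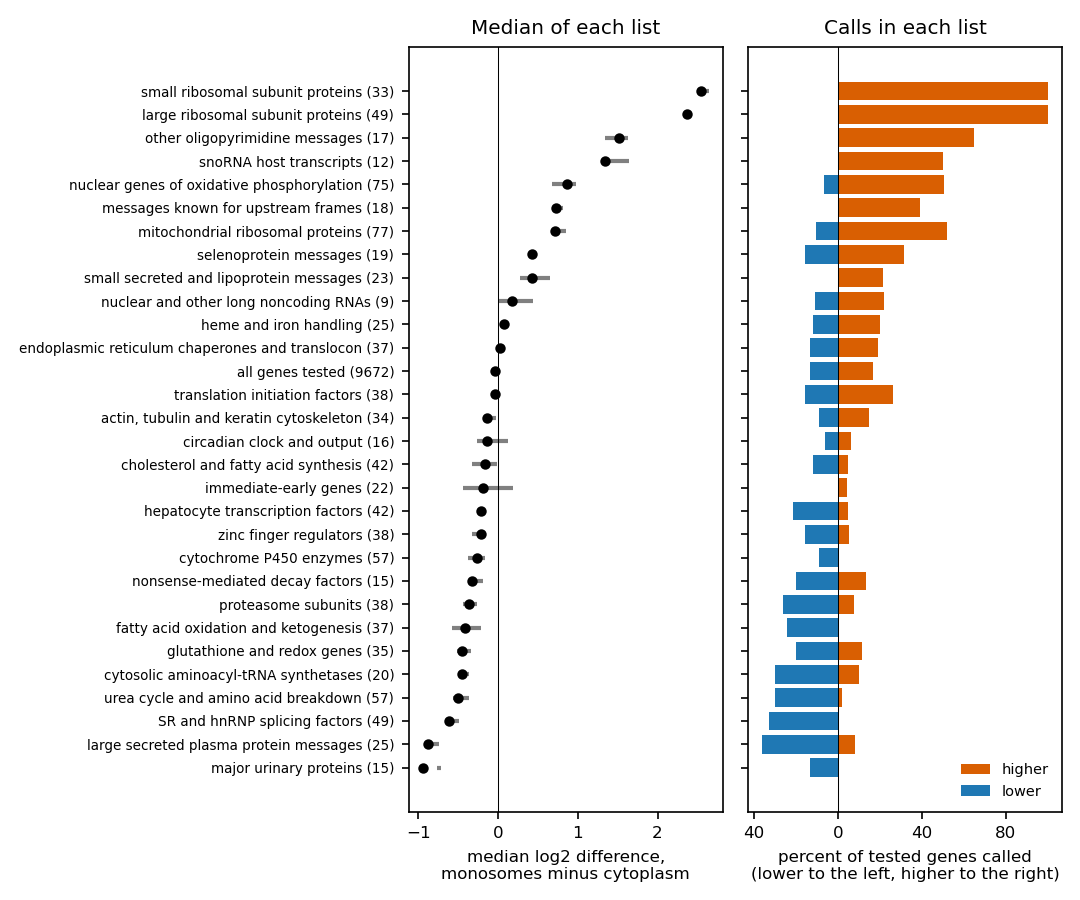
Left, median log2 difference between chow monosomes and cytoplasm of each gene list with at least 9 tested genes (number tested in brackets), with a grey bar between the medians of replicate 1 and replicate 2. Right, percent of each list called higher (orange, to the right) and lower (blue, to the left), from 100% higher for ribosomal proteins to 36.0% lower for large secreted proteins, beside 16.9% and 13.2% for all genes.

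Splicing factors, which act in the nucleus, moved in 1 direction where they passed. Of 49 SR and hnRNP genes 0 were higher and 16 lower (32.7%, against 13.2% of all genes) by limma (0 and 25 unadjusted). Their median was -0.61. Hnrnpa3, an RNA-binding protein, was at 79.1 and 75.6 FPKM in cytoplasm, 13.4 and 15.0 FPKM on monosomes, 17.4 and 17.3 FPKM on light and 27.6 and 26.0 FPKM on heavy polysomes. All ribosome-bound pools lay below cytoplasm, and the difference for monosomes was -2.37 (SE 0.33, limma adjusted p = 0.000313). Hnrnpu, a nuclear scaffold protein, was at 52.2 and 44.8 against 15.4 and 8.19 FPKM (-2.01) but at 43.6 and 41.1 FPKM on heavy polysomes. Srsf5 fell by 2.74 and Hnrnpa2b1 by 2.05. Nonsense-mediated decay factors had 2 of 15 higher (13.3%) and 3 lower (20%), against 16.9% and 13.2% of all genes.

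Hepatocyte transcription factors had 2 of 42 higher and 9 lower (21.4%, against 13.2% of all genes), with a median of -0.21. Nr1h3, the sterol receptor LXR alpha, rose by 1.91 from 44.4 and 36.2 to 158 and 148 FPKM, while Nr1h4, the bile acid receptor FXR, fell by 0.85 from 39.5 and 45.8 to 25.3 and 21.1 FPKM. The call of Nr1h4 was lost without monosome replicate 2 (-0.73, adjusted p = 0.108) or either cytoplasmic library (adjusted p = 0.0524 and 0.105). Prox1 fell by 1.16. Hnf4a, which maintains hepatocyte identity, was at 118 and 127 against 72.9 and 78.2 FPKM and did not pass (-0.69, limma adjusted p = 0.0857). It passed with the replicate block in the 8 chow libraries (adjusted p = 0.0081). Cebpa was at 177 and 172 against 265 and 247 FPKM and did not pass (0.55), but passed with the replicate block in the 8 chow libraries (adjusted p = 0.0115). Zinc finger regulators had 2 of 38 higher (5.26%) and 6 lower (15.8%, near the 13.2% of all genes). Immediate-early genes had 1 of 22 higher (4.55%) and 0 lower by limma (2 and 1 unadjusted). The 1 was Jund (1.10, or 0.42 with equal totals and adjusted p = 0.101). Clock genes had 1 of 16 higher and 1 lower (6.25% each, below the 16.9% and 13.2% of all genes). Dbp, a clock output factor, was at 1.43 and 20.2 FPKM in cytoplasm and 65.0 and 54.0 FPKM on monosomes. Its call at 3.07 rested on the low first library: without cytoplasmic replicate 1 it was 1.51 (adjusted p = 0.322).

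Several of the largest single changes lay outside these lists. Dph3, needed for the diphthamide modification of elongation factor 2, rose by 3.56 from 12.2 and 12.1 to 150 and 158 FPKM. Guca1a, known as a guanylate cyclase activator of photoreceptors, was at 2.11 and 2.95 against 29.6 and 50 FPKM (3.50). Ubr4, a very large ubiquitin ligase, was at 23.6 and 22.4 FPKM in cytoplasm and 2.63 and 1.61 FPKM on monosomes (-2.96, SE 0.29, limma adjusted p = 4.18e-05). Ces1c, a secreted carboxylesterase, fell by 2.92 from 1130 and 796 to 163 and 95.5 FPKM, while heavy polysomes held 1370 and 1040 FPKM. Sugct, a mitochondrial CoA-transferase, fell by 3.01 from 27.3 and 37.6 to 2.58 and 3.73 FPKM. Pigr, the carrier of polymeric immunoglobulin, was at 596 and 547 against 70.7 and 72.0 FPKM, but its variance over all libraries was large (SE 0.88), and leaving out any of the 4 libraries lost the call (adjusted p from 0.0693 to 0.105).

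Some large changes involve values of 0 or shared exons and are less certain. Serpind1, a thrombin inhibitor, was at 43.3 and 34.1 FPKM in cytoplasm and 0.792 and 0 FPKM on monosomes. Mir703 was at 62.7 and 82.3 FPKM and is listed at 0 in both monosome libraries. Ugt1a8 was at 0.0736 and 0.199 against 6.47 and 43.1 FPKM and Ugt1a6a at 22.9 and 28.2 against 3.18 and 0 FPKM. Both are alternative first exons of the Ugt1a locus on chromosome 1 with shared later exons, so their fragments can be exchanged between them.

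**Figure D5:**
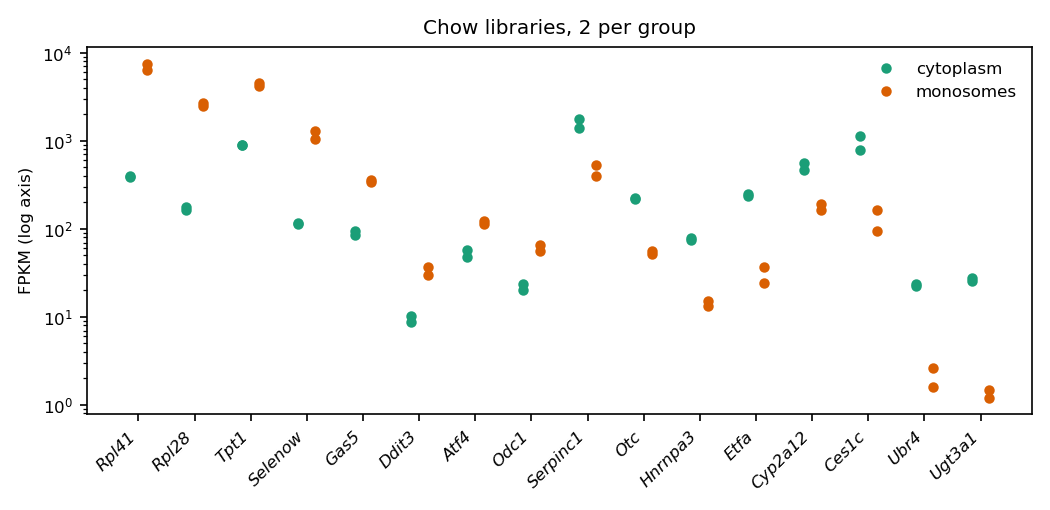
FPKM on a log axis of 16 named genes in the 2 chow cytoplasmic libraries (green) and the 2 chow monosome libraries (orange). The groups are apart for each gene, from Rpl41 (386 and 401 against 6380 and 7530) to Ugt3a1 (25.5 and 27.3 against 1.48 and 1.21). Genes named for the largest changes had to have groups apart, so for those the separation follows from the choice.

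Markers of other cells were checked because the preparations could hold them. In these bulk libraries fewer cells of a type and less RNA per cell cannot be told apart. Of the red cell list 4 of 11 genes were tested and 2 were higher. The summed level was 12.3 and 18.7 FPKM in cytoplasm and 95.9 and 67.2 FPKM on monosomes. Hba-a1, an alpha globin, was at 0.569 and 1.04 against 37.8 and 9.81 FPKM (3.52), not called without monosome replicate 1 (2.59, adjusted p = 0.0927) or cytoplasmic replicate 1 (3.32, adjusted p = 0.0801). Hbb-bs was at 1.25 and 1.57 against 29.4 and 9.28 FPKM and did not pass (2.88, adjusted p = 0.0676). It passed with the replicate block in the 8 chow libraries (adjusted p = 0.00573). Kupffer cell markers summed to 157 and 121 against 158 and 133 FPKM with 2 of 16 higher (12.5%) and 1 lower (6.25%). Endothelial markers summed to 92.9 and 92.7 against 111 and 128 FPKM with 2 of 15 higher (13.3%). These shares were below the 16.9% and 13.2% of all genes. Stellate cell markers summed to 46.5 and 77.2 against 52.2 and 72.7 FPKM, ductal markers to 47.4 and 42.2 against 24.5 and 27.4 FPKM, of which Tm4sf4 alone made up 40.4 and 35.9 against 17.9 and 17.7 FPKM (-1.05, called lower except without monosome replicate 2 or cytoplasmic replicate 1, adjusted p = 0.0564 and 0.0747). Krt19, Krt7, Epcam and Sox9, defining ductal markers, were under 1 FPKM in all 4 libraries. Lymphoid and neutrophil markers summed to under 7 FPKM in every library. Summed red cell levels lay far below the hepatocyte sums, and the part of other cells in the results was not tested.

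The same comparison was made in DDC-fed mice, with no shared library, to see where chow differed. Every DDC library of these pools held Ddx3y and none held Xist, unlike replicate 1 of chow. The part of sex in differences between the diets was not tested. Only 4 of 9654 genes (0.0414%) differed between the diets by limma (adjusted p under 0.05), with 1228 at an unadjusted p under 0.05. Of the genes called in chow with a DDC value, 2723 of 2912 had the same sign in DDC. Ugt3a1, a glycosyltransferase of liver at chr15:9276888-9315032, was 1 of the 4. In chow it was at 25.5 and 27.3 FPKM in cytoplasm, 1.48 and 1.21 FPKM on monosomes and 14.6 and 14.0 FPKM on heavy polysomes, a difference of -3.55 (SE 0.19, limma adjusted p = 2.46e-06). In DDC it was under 1 FPKM in every pool, so the comparison there has no range. Ribosomal protein messages had a median of 1.19 in DDC against 2.52 in chow, and the chow difference was the larger for all 82. None of the 82 passed for the difference between diets by limma, and 67 had an unadjusted p under 0.05. The coding length order was flatter in DDC, with medians from 0.41 to -0.30 and Spearman's rho of -0.221. Large plasma proteins had a median of 0.10 in DDC, and splicing factors -1.04, neither tested for a difference between diets as a list.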

How the data were processed

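Polyadenylated RNA was measured in 16 libraries, and all were used for the estimate of spread. The deposited values are FPKM per transcript, made by the authors with Cuffnorm, in a file whose name speaks of counts. Per the submitters' processing notes, which give no roles or order, the tools included STAR (version 2.4.2a), Picard (release 1.119), bcl2fastq (2.17.1.14), Cuffnorm and Trimmomatic, and the build was GRCm38. Options for Cuffnorm are not given in the sources used here. Whether counting used strand is likewise not given, so overlapping genes are uncertain. Depth is unknown: 1 fragment per kilobase was worth 0.0176 to 0.061 FPKM in the 4 libraries, on a scale already adjusted between libraries.

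Transcripts were joined to GENCODE M21 (116728 of 117592, 99.27%) and summed per gene. Genes with at least 1 FPKM in 2 of the 4 libraries were tested on log2(FPKM + 1) with limma 3.58.1 in R 4.3.3, as 8 group means over 16 libraries with a variance trend (8 residual and 4.213 prior degrees of freedom), and Benjamini-Hochberg adjustment over all genes tested. Genes at 0 in both replicates of a group and at 100 FPKM or more in another library were treated as missing there, which removed 3 genes. A further 21 such genes were at 0 in all 4 libraries. The fit was tested on simulated data in which all libraries varied independently, unlike the linked replicates described below. That test does not show the rate of false calls in these data. A p-value measures the spread between libraries, which may be technical or, between the chow replicates, include a difference of sex.

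Preparation names link replicates (CH1 in CH1_CH2, CH3 in CH3_CH4), and the difference between replicates correlated at 0.521 between cytoplasm and monosomes across genes. Xist was present only in replicate 1 and Y-linked Ddx3y only in replicate 2 of both pools. In DDC, Xist was at 0 and Ddx3y at 1.2 to 3.1 FPKM in the libraries of these pools. The spread between chow replicates may thus include a difference of sex, which was not tested. The fit without the block is the one reported.

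Named genes included the called genes with the 10 highest and the 10 lowest differences. These needed a mean of at least 20 FPKM in the higher group, at least 5 FPKM in its lower library and groups that did not overlap. Predicted genes, pseudogenes and genes treated as missing were left out of that choice. Also named were 24 fixed genes and up to 3 members with the lowest p of each list. Other list members named here were chosen after their values were seen. Some items meeting these rules are not reported here. The members and lists were chosen with earlier results of these data known. Coding length was that of the most abundant transcript. The 19 alternatives covered the samples fitted, replicate block, pseudocount, filter, scaling, zeros and left-out libraries.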

Additional observations from a re-analysis of the deposited data

Results flagged for a closer look

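Monosomes against cytoplasm differed between chow and DDC for 4 genes by a test of that difference (limma interaction, Benjamini-Hochberg adjusted p under 0.05). Ugt3a1 had a chow difference lower than the DDC one by a value of -3.28 (adjusted p = 0.000338), and was under 1 FPKM in all DDC libraries of these pools. D730003I15Rik, a lincRNA, had 2.16 (adjusted p = 0.0154): it was at 0.882 and 1.19 FPKM in chow cytoplasm and 9.61 and 7.56 FPKM on chow monosomes, against 0.623 and 0.488 and then 0.673 and 0.588 FPKM in DDC. Gm21286, an unprocessed pseudogene, had 2.57 (adjusted p = 0.00132): it was at 11.8 and 11.1 FPKM in chow cytoplasm and 72.0 and 73.4 FPKM on chow monosomes, and is listed at 0 in these 4 DDC libraries. Gm29216, another unprocessed pseudogene, had -7.61 (adjusted p = 0.00132): it was at 6.5 and 8.71 FPKM in chow cytoplasm and listed at 0 on chow monosomes, while in DDC it is listed at 0 in cytoplasm and was at 13.0 and 36.3 FPKM on monosomes. Of the 4, only the lincRNA had values above 0.1 FPKM in all 8 libraries.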

How the results depend on the processing

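The number of genes higher was 911 and the number lower 3809 with equal totals, and 771 were lower with a filter at 5 FPKM. Leaving out 1 library gave 909 to 1552 higher and 454 to 1208 lower, leaving out replicate 1 of every chow group 796 and 541, and leaving out replicate 2 of every chow group 327 and 115. In the last, 57 of 82 ribosomal proteins were still called. Where an arm kept 1 library it was assumed to vary like the others. With the replicate block 2072 genes were higher and 1632 lower in the 8 chow libraries, and 2206 and 1608 in the 4 libraries. Without the block, 7 named genes also gained a call in the 8 chow libraries and 5 in the 4 libraries. Gains in the fits with the block were thus not separated from the choice of libraries. Apart from genes named with the block above, the block changed the calls of Ttr (0.68, adjusted p = 0.007, gained), mt-Nd3 (1.06, adjusted p = 0.0613, lost) and, in the 4 libraries, Hamp (0.46, adjusted p = 0.0228) and Cebpb (-0.58, adjusted p = 0.0182), both gained, and Zfp131 (-0.81, adjusted p = 0.0564, lost), and no other named gene. Genes that differed between diets numbered 1 with a pseudocount of 0.1 and 35 with quantile normalization.

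With equal totals the median of all genes moved to -0.60, so the turns at that scale go with a shift of all genes. Directions turned with equal totals for selenoproteins (-0.26), small secreted messages (-0.27), coding lengths above 300 and up to 600 nucleotides (-0.19) and up to 1200 (-0.56), long noncoding RNAs (-0.21), heme and iron genes (-0.51), endoplasmic reticulum chaperones (-0.67) and Apob (-0.62). They turned with quantile normalization for selenoproteins (-0.04), small secreted messages (-0.16), heme and iron genes (-0.19), endoplasmic reticulum chaperones (-0.38), coding lengths up to 1200 (-0.06), Apob (-0.93) and Selenop (-0.93), and Apoc1 moved to 0.00. The median of major urinary proteins turned to 0.21 without monosome replicate 1 and 0.20 without cytoplasmic replicate 2, its range over left-out libraries being -1.64 to 0.21. The cytoskeleton median moved to 0.00 and the Kupffer cell median to 0.08 without monosome replicate 2, the latter to 0.02 (lowest value -0.43, without cytoplasmic replicate 2) without replicate 2 of every chow group, and the stellate median to 0.30 with a filter at 5 FPKM. The cause was not tested. With 2 libraries a group, small differences could not be resolved.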
